A study of Homo sapiens with 9 samples.

Results

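The long noncoding host genes of small nucleolar RNAs (snoRNAs) were followed in human pluripotent stem cells under 2 inhibitors of Polycomb repressive complex 2 (PRC2). They were chosen by name: the 32 of 56312 entries of the deposited count table whose symbol is SNHG followed by a number, or is GAS5, DANCR or ZFAS1. All 32 passed the filter on low counts, which left 24187 entries for testing. The cells were HNES1, an embryo-derived naive human pluripotent line of wild-type genotype, taken on day 5 after withdrawal of the naive medium PXGL, in N2B27 medium with the tankyrase inhibitor XAV939. The group PROTAC received UNC6852 at 2.5 µM, a degrader of the PRC2 subunit EED, the group UNC received UNC1999 at 1 µM, an inhibitor of the catalytic PRC2 subunits EZH1 and EZH2, and the group DMSO received the solvent. Each agent was first given 24 h before the withdrawal and was renewed daily. Each group had 3 libraries from 1 cell line, described as biological replicates, and the 2 compounds were used at different doses.

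A host gene is transcribed as a long precursor whose introns contain snoRNAs. After splicing, the snoRNA is released from the debranched intron and packed with proteins, while the exons form a spliced RNA that usually encodes no protein. Box C/D snoRNAs guide 2'-O-methylation of ribosomal RNA, box H/ACA snoRNAs guide pseudouridylation, and the related scaRNAs act on spliceosomal RNAs in Cajal bodies. Many hosts begin with a run of pyrimidines, the 5' terminal oligopyrimidine (TOP) tract that ribosomal protein genes also carry, and several spliced host RNAs, GAS5 among them, are degraded by nonsense-mediated decay while they are translated. The counts here are of reads over the host entries, so they do not measure the mature snoRNAs on their own. Some small RNAs lie on annotated host exons, as do all 7 that GENCODE 29 places in SNHG1. Reads from such small RNAs may be counted with the host.

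In the GENCODE 29 annotation (GRCh38), 31 of the 32 members had at least 1 snoRNA or scaRNA inside their deposited coordinates on the same strand, with none matched for GAS5. The missing match is an outcome of this annotation lookup and does not show that GAS5 contains no snoRNA. The small RNAs inside members made up 148 annotated entries, of which 84 lay in SNHG14, the long transcript of the Prader-Willi and Angelman region. Some entries stand for the same small RNA under separate identifiers, such as SNORA16A in SNHG12 and SNORA17B in SNHG7. Outside SNHG14 a member held 1 to 7, with SNHG1 at the top. By name 108 were box C/D, 24 were box H/ACA and 4 were scaRNAs, and the rest had names that give no class. SNHG29 held SNORD49A, SNORD49B and SNORD65, SNHG16 held SNORD1A, SNORD1B and SNORD1C, ZFAS1 held SNORD12, SNORD12B and SNORD12C, and DANCR held SNORA26.

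The annotated starts of the hosts are shown because the pyrimidine tract is the feature these genes are known for. RefSeq's promoter table (GRCh38.p14) matched 28 member symbols with 29 starts. SNHG15, SNHG25, SNHG6 and SNHG9 had no match. Each window below runs 5' to 3' on the gene's strand and has 40 bases, with the annotated start at base 21, and the capitals mark its longest unbroken run of C and T. The members are those with the most reads, leaving out SNHG14, whose annotated start lay 154975 bases from the deposited 5' end, and SNHG26, added after its values were seen.
SNHG29 (chr17:16438967-16439006, + strand): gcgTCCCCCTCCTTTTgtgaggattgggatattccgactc
SNHG16 (chr17:76557744-76557783, + strand): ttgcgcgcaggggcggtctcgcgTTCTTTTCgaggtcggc
ZFAS1 (chr20:49278622-49278661, + strand): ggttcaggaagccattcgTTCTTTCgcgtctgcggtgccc
SNHG26 (chr7:22854220-22854259, + strand): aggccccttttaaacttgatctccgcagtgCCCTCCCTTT
SNHG1 (chr11:62855866-62855905, - strand): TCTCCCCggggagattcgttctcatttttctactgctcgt
SNHG17 (chr20:38435309-38435348, - strand): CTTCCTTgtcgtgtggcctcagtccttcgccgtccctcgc
SNHG3 (chr1:28505923-28505962, + strand): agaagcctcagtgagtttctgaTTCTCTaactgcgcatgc
GAS5 (chr1:173869026-173869065, - strand): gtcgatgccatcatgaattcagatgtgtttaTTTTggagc
Among the windows shown, the run reached 13 bases in SNHG29 and 4 in GAS5. The run was taken wherever it lay in the window, whereas a TOP tract begins at the start itself. Only in ZFAS1, of the windows shown, does the marked run cover the annotated start at base 21. Shorter runs cover it in SNHG1 and SNHG26. SNHG1 also holds another run as long as the marked one, left in lower case, that does not cover the start. The marked run of SNHG26 is cut by the window's edge. The shares below therefore do not count TOP tracts. For GAS5 the annotated start lay 105 bases from the deposited 5' end, and its short run does not show that a tract is absent. A run of at least 7 was found in 15 of the 29 member starts (51.7%), against 25.6% of the 35116 promoters of the table, and the median longest run was 7 bases in members, against 5 over all promoters. The motif CTTT stood on the gene's strand within 20 bases of the start in 12 member starts (41.4%), against 16.0% of all promoters. On the opposite strand CTTT was found in 1 member start (3.45%), against 12.6% of all promoters. The longer TTCTTT, which contains CTTT, was on the gene's strand in 3 member starts, namely SNHG16, ZFAS1 and SNHG32 (10.3%), against 1.81% of all promoters. These are descriptions of annotated sequence, without a test. Of the 29 starts, 23 lay within 1000 bases of the 5' end of the deposited entry. Those of ZFAS1 (1588 bases away) and SNHG32 (12822 bases away) did not. The start of SNHG14, left out of the windows shown, is counted in the shares.

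Total counts per library lay between 31651742 (PROTAC 3) and 101081643 (UNC 1). The 32 members together took 0.561% ± 0.0124 of the reads in PROTAC libraries, 0.563% ± 0.0261 in UNC libraries and 0.569% ± 0.0270 in DMSO libraries (SD, n = 3 each). All 9 pluripotency markers found in the table were above 1 CPM in every group, with POU5F1 at 677 to 792 CPM and NANOG at 431 to 528 CPM over the 9 libraries. The summed level of 10 trophoblast markers was 16.5 to 51.4 CPM in PROTAC, 11.3 to 32.8 CPM in UNC and 21.7 to 55.4 CPM in DMSO libraries, and that of 8 mesoderm and endoderm markers was 8.37 to 12.02, 9.13 to 11.6 and 10.8 to 14.0 CPM in the same order of groups. Mitochondrial transcripts made up 3.21% to 3.68% of reads in PROTAC, 3.33% to 4.66% in UNC and 4.14% to 5.12% in DMSO libraries, so that the PROTAC and DMSO ranges did not overlap. Of the 10 trophoblast markers, 6, 5 and 7 averaged at least 1 CPM in PROTAC, UNC and DMSO, and in the fit with replicate numbers described below 2 were called lower in PROTAC against DMSO, 6 lower in UNC against DMSO and 4 higher in PROTAC against UNC. Over all genes that fit called 0.984%, 6.46% and 2.17% in those directions in the same comparisons. Of the 10 naive pluripotency markers, 3 were called higher and 1 lower in that fit in each comparison with DMSO. Among them was ARGFX, higher by 1.12 on the log2 scale in PROTAC and by 1.68 in UNC. Over all genes 2.01% were called higher and 0.984% lower in PROTAC against DMSO. In UNC against DMSO 7.04% were called higher and 6.46% lower. The 8 fibroblast markers summed to 424 to 460 CPM in PROTAC, 365 to 421 CPM in UNC and 427 to 469 CPM in DMSO libraries; the feeder cells of the maintenance culture were mouse. The part of these differences in the results that follow was not tested. In such bulk libraries fewer cells that express a gene and less of its RNA per cell cannot be told apart.

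Reads were spread unevenly over the members. SNHG14 took 33.1% of all member counts, SNHG29 15.1%, GAS5 10.7%, SNHG3 7.33% and SNHG1 6.58%. Per kilobase of merged GENCODE 29 exons, which was available for 31 members, the order changed: SNHG29 was first with 229 CPM per kb, GAS5 second with 169 CPM per kb and then SNHG3 with 103 CPM per kb, each as the mean of 9 libraries. SNHG1 (99.9 CPM per kb) and ZFAS1 (95.6 CPM per kb) followed, and SNHG14, whose merged exons span 43.3 kb, had 42.2 CPM per kb. The lowest were SNHG20 (0.757 CPM per kb), SNHG18 (0.461 CPM per kb) and SNHG28 (0.222 CPM per kb). DANCR, named for a role in holding back differentiation of progenitor cells, had 11.3 CPM per kb.

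Below, levels are CPM, read counts scaled to library size with TMM factors, and a gene is called where its p in edgeR's quasi-likelihood test, adjusted by Benjamini and Hochberg over the 24187 genes, is under 0.05. The test was fitted by group alone and, with the replicate number as a block (the paired fit), since libraries with the same number deviated together. The fold change is the first-named group over the second on the log2 scale.

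Few members of the family were called. By group alone none of the 32 members was called in PROTAC against DMSO, where 0% of all genes tested were called, in UNC against DMSO, where 0.719% were, or in PROTAC against UNC, where 0.00827% were. At an unadjusted p under 0.05 there were 2, 2 and 0 members in these comparisons, where 4.96%, 12.4% and 4.70% of all genes were. DESeq2 called 1, 1 and 0 members, where it called 0.0951%, 3.31% and 0.533% of all genes. By direction, 0.401% of all genes were called lower and 0.318% higher in UNC against DMSO, and 0.00827% higher and 0% lower in PROTAC against UNC.

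In the paired fit 2 members (6.25%) were called in PROTAC against DMSO, both lower, where 2.99% of all genes were called, 0.984% lower and 2.01% higher. In UNC against DMSO 4 members (12.5%) were called, 3 lower and 1 higher, where 13.5% of all genes were called, 6.46% lower and 7.04% higher, so the share of members was close to that of all genes. In PROTAC against UNC 0 members were called, where 2.91% of all genes were called, 2.17% higher and 0.740% lower. In that comparison 0 members had an unadjusted p under 0.05, where 13.0% of all genes had one. DESeq2 with the block called 2, 5 and 0 members in the 3 comparisons, where it called 3.52%, 12.7% and 2.59% of all genes.

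The members' fold changes were centred near 0. In the paired fit their median log2 fold change was -0.05 in PROTAC against DMSO, -0.01 in UNC against DMSO and -0.02 in PROTAC against UNC, beside -0.01, -0.01 and -0.00 over all genes tested, and 13, 15 and 11 of the 32 members were positive. With libraries left out, over fits by group alone and with the block, that median ran from -0.105 to 0.0490 in PROTAC against DMSO. In UNC against DMSO it ran from -0.0753 to 0.0582. Over these pooled settings its sign changed in both comparisons. The median size of change, without its sign, was 0.0971, 0.114 and 0.0627 for members and 0.117, 0.148 and 0.106 for all genes. For 29, 29 and 31 of the 32 members the 95% interval of the paired fit lay within a 1.5-fold change either way. The exceptions against DMSO were SNHG20, SNHG18 and SNHG28, the 3 members with the lowest levels per kb of the 31 with a length, and against UNC it was SNHG28. The comparisons with DMSO share the same 3 DMSO libraries.

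**Figure D1:**
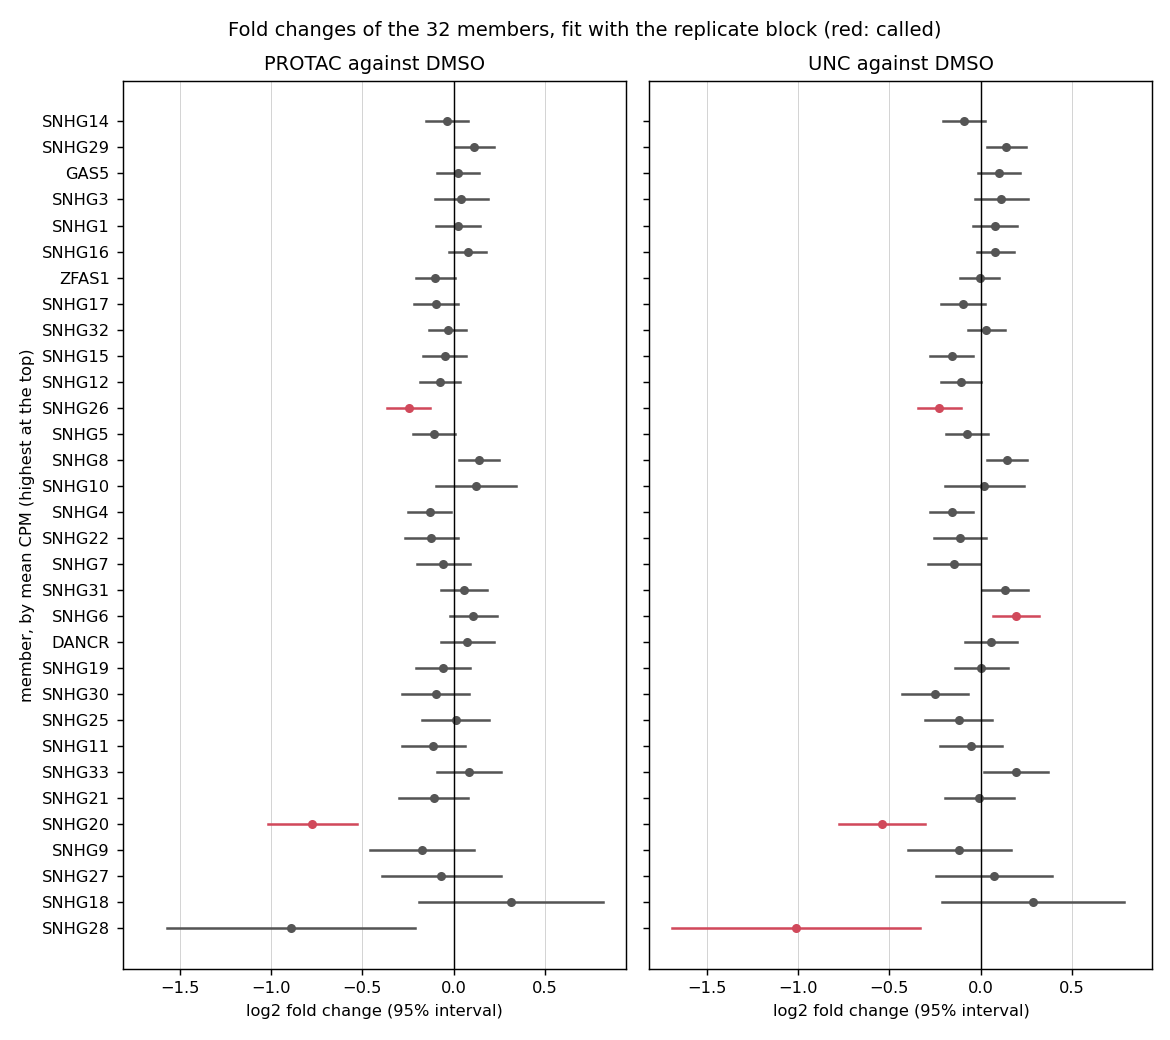
Log2 fold change (x axis, with 95% intervals) of each of the 32 members (y axis, highest mean CPM at the top) in PROTAC against DMSO (left) and UNC against DMSO (right), from the paired fit, with called members in red. Most intervals lie close to 0, and SNHG20 and SNHG26 lie below 0 in both panels.

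Among the hosts with the most reads, SNHG14 had 1997, 1773 and 1721 CPM in PROTAC 1 to 3, 2142, 1677 and 1512 CPM in UNC 1 to 3, and 2146, 1814 and 1687 CPM in DMSO 1 to 3. Its groups overlapped, with library number 1 the highest in each group. The paired log2 fold change was -0.03 ± 0.0572 (SE; adjusted p = 0.839, edgeR) in PROTAC and -0.09 ± 0.0572 (adjusted p = 0.342, edgeR) in UNC, both against DMSO. SNHG14 runs antisense through UBE3A and overlaps SNRPN on its own strand, and those entries had 57233 and 150933 counts beside its 1143133. Their annotated exons share 198 and 141 bases with those of SNHG14. Other entries on its strand share more. ENSG00000261069 (101584 counts) shares 1236 exon bases, 100% of its own, and ENSG00000214265 (87245 counts) shares 1049, 66.0% of its own. Part of the SNHG14 reads may be shared with these entries.

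SNHG29 had 802, 975 and 849 CPM in PROTAC libraries, 803, 996 and 880 CPM in UNC libraries, and 701, 919 and 814 CPM in DMSO libraries. Number 1 was the lowest in each group, and within each number both treated libraries were above the DMSO library. Its paired log2 fold change was 0.11 ± 0.0523 in PROTAC (adjusted p = 0.269, edgeR) and 0.14 ± 0.0523 in UNC (adjusted p = 0.0677, edgeR), and was not called, while DESeq2 with the block called it in UNC (adjusted p = 0.0104). LRRC75A, which lies opposite to it and shares 452 exon bases with it (12.02% of the SNHG29 exons), was called higher in UNC in the paired fit, by 0.34 ± 0.0752 (adjusted p = 0.00157, edgeR), but had 10662 counts in all beside 522331 of SNHG29.

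GAS5, a growth-arrest transcript whose spliced RNA is a classical target of nonsense-mediated decay, had 548, 667 and 604 CPM in PROTAC, 549, 752 and 619 CPM in UNC, and 584, 619 and 575 CPM in DMSO libraries. The groups overlapped. The paired log2 fold change was 0.03 ± 0.0566 in PROTAC (adjusted p = 0.888, edgeR) and 0.10 ± 0.0566 in UNC (adjusted p = 0.280, edgeR). Without number 1 the paired change in UNC was 0.19 and was called (adjusted p = 0.0165, edgeR). SNHG3, host of SNORA73A and SNORA73B, had 345, 472 and 444 CPM in PROTAC, 393, 490 and 441 CPM in UNC, and 409, 392 and 413 CPM in DMSO libraries. Here too the groups overlapped, with changes of 0.04 ± 0.0697 and 0.11 ± 0.0696 that were not called. In UNC it was called without DMSO 1 or number 1, with a change up to 0.24 (lowest adjusted p = 0.00927, edgeR). SNHG3 lies wholly inside the RCC1 entry on the same strand and shares 242 exon bases with it, and RCC1 had 66207 counts beside 252795 of SNHG3, so reads may be shared between them.

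SNHG1, host of SNORD22 and of SNORD25 to SNORD28, had 355, 386 and 377 CPM in PROTAC, 353, 423 and 388 CPM in UNC, and 393, 349 and 355 CPM in DMSO libraries. It was not called in the full data, and in UNC it was called in the paired fit without DMSO 1 or number 1 (lowest adjusted p = 0.00923, edgeR). SNHG16 had 305, 317 and 326 CPM in PROTAC, 293, 341 and 319 CPM in UNC, and 283, 313 and 304 CPM in DMSO libraries. In SNHG16 each treated library was above the DMSO library of its number, by a paired log2 fold change of 0.08 ± 0.0503 in PROTAC and 0.08 ± 0.0502 in UNC, and it was not called.

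ZFAS1, which starts beside ZNFX1 on the opposite strand, had 194, 216 and 205 CPM in PROTAC, 199, 232 and 227 CPM in UNC, and 224, 217 and 218 CPM in DMSO libraries. The PROTAC libraries lay below all DMSO libraries, with a paired log2 fold change of -0.10 ± 0.0529 (adjusted p = 0.347, edgeR), and the UNC libraries overlapped with DMSO. SNHG17, host of the SNORA71 family, had 146, 168 and 163 CPM in PROTAC, 157, 165 and 155 CPM in UNC, and 186, 162 and 161 CPM in DMSO libraries, with 1 DMSO library above all others. Neither gene was called in any comparison.

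**Figure D2:**
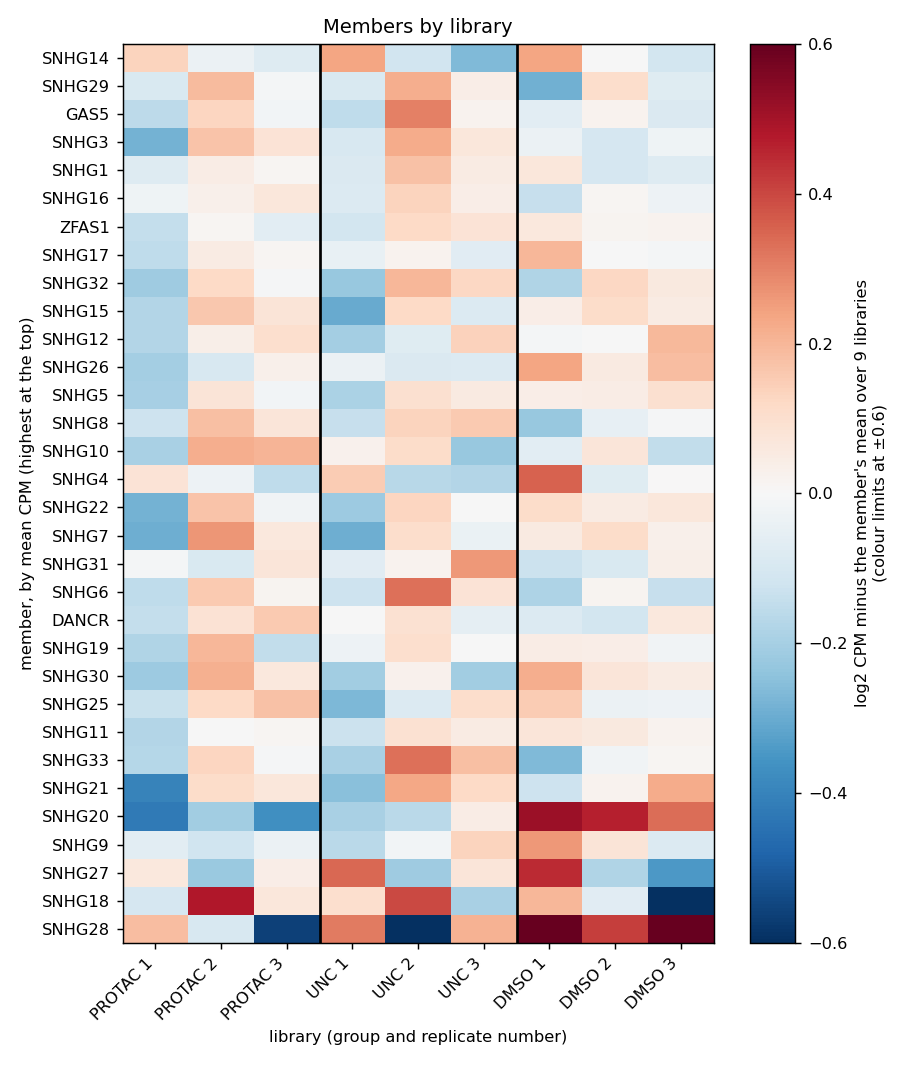
Level of each member (rows, highest mean CPM at the top) in each of the 9 libraries (columns, PROTAC, UNC and DMSO), as log2 CPM minus the member's mean over the libraries, with colours limited at ±0.6. SNHG20 is low in PROTAC and UNC and high in DMSO libraries, while SNHG29, SNHG16 and 8 other members are lowest in library number 1 of every group.

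A second pattern ran along the replicate numbers and not along the treatments. Library number 1 was the lowest of its group in all 3 groups for 10 of the 32 members (31.3%), against 13.5% of all genes tested; these were SNHG29, SNHG16, SNHG32, SNHG15, SNHG12, SNHG5, SNHG8, SNHG6, SNHG33 and SNHG21. It was the highest in all 3 groups for 4 members (12.5%), SNHG14, SNHG4, SNHG27 and SNHG28, against 15.8% of all genes. The ratio of a member's highest to its lowest library over all 9 was between 1.20 (ZFAS1) and 12.9 (SNHG28), with 1.92 in SNHG20.

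SNHG20 gave the clearest difference by treatment. It had 3.34, 3.88 and 3.47 CPM in PROTAC libraries, 3.92, 4.003 and 4.63 CPM in UNC libraries, and 6.40, 6.19 and 5.66 CPM in DMSO libraries. All treated libraries lay below all DMSO libraries, and the PROTAC libraries lay below the UNC libraries. In the paired fit it fell by 0.77 ± 0.120 on the log2 scale in PROTAC (95% interval -1.02 to -0.53, adjusted p = 0.000116, edgeR) and by 0.54 ± 0.117 in UNC (-0.78 to -0.30, adjusted p = 0.00123, edgeR), lower in 3 of 3 pairs each. By group alone the same differences had adjusted p = 0.328 and adjusted p = 0.0895 in edgeR's test. PROTAC against UNC was -0.23 ± 0.123 (-0.48 to 0.01, adjusted p = 0.428, edgeR, paired), lower in 3 of 3 pairs and not called, at doses that differ.

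**Figure D3:**
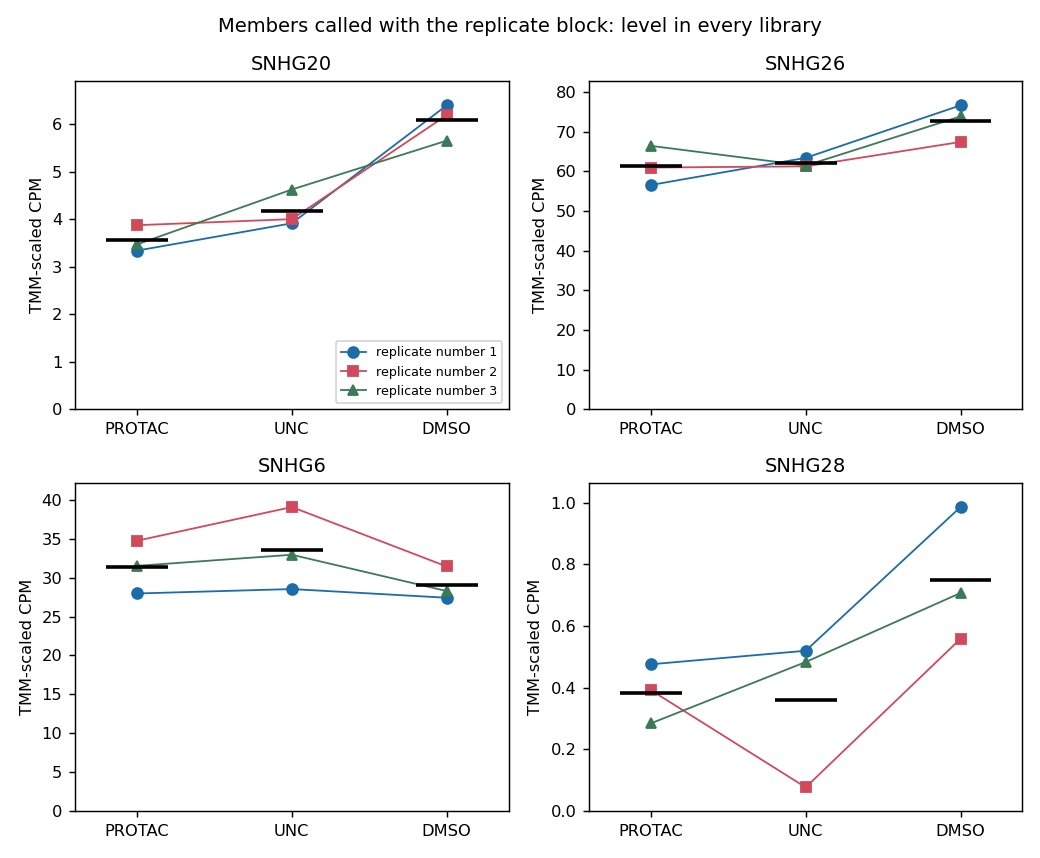
TMM-scaled CPM (y axes, from 0) of SNHG20, SNHG26, SNHG6 and SNHG28 in the PROTAC, UNC and DMSO libraries, with lines joining libraries of the same replicate number and black bars at group means. SNHG20 and SNHG26 are lower in both treated groups than in DMSO, SNHG6 is higher in UNC within each number, and SNHG28 lies below 1 CPM throughout.

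SNHG20 shares its locus with larger signals. The entry spans chr17:77086716-77099902 on the plus strand (GRCh38) and overlaps SEC14L1, a lipid-binding protein gene on the same strand with 58201 counts in all, against 2814 counts of SNHG20. Their GENCODE 29 exons share 460 bases, 7.56% of the SNHG20 exons. SEC14L1 did not fall: in the paired fit it rose by 0.19 ± 0.0517 in PROTAC (adjusted p = 0.0305, edgeR) and its log2 fold change was 0.00 ± 0.0516 in UNC (adjusted p = 0.971, edgeR). SCARNA16, which lies inside SNHG20, was also counted as an entry of its own. SCARNA16 had 52, 64 and 14 counts in PROTAC, 66, 32 and 52 in UNC, and 70, 66 and 37 in DMSO libraries, with changes of -0.51 ± 0.270 (adjusted p = 0.367, edgeR) and -0.37 ± 0.264 (adjusted p = 0.413, edgeR).

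The promoter of SNHG20 is printed because this member was called in both comparisons with DMSO, and SCARNA16 because it is the small RNA this host contains; both were chosen after the values were seen. The promoter runs from 250 bases before to 50 bases after the RefSeq start (GRCh38.p14), which lies 1927 bases inside the deposited entry, and the capitals mark CTTCCG or its reverse complement CGGAAG. In SCARNA16 (GRCh38) the capitals mark the ACA box near the 3' end.
SNHG20 (chr17:77088393-77088692, + strand): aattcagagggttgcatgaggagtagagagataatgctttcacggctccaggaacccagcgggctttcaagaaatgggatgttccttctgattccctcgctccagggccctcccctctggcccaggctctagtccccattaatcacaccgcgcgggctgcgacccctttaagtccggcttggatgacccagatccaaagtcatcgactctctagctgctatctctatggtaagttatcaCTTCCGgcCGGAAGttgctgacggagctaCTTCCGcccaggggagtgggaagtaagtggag
SCARNA16 (chr17:77089307-77089493, + strand): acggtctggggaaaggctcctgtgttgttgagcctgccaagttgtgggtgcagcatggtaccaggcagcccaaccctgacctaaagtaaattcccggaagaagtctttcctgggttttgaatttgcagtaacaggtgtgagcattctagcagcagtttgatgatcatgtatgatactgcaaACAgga
The promoter holds 3 matches to CTTCCG, counted on both strands. At least 1 match stood in 6 of the 29 member promoters (20.7%), against 19.5% of the 35116 promoters of the table, so that the members held it about as often as promoters in general.

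SNHG26 was lower in both treated groups by a smaller amount. It had 56.5, 60.9 and 66.4 CPM in PROTAC libraries, 63.4, 61.2 and 61.4 CPM in UNC libraries, and 76.6, 67.4 and 73.8 CPM in DMSO libraries. Every treated library lay below every DMSO library, and the PROTAC and UNC libraries overlapped. In the paired fit it fell by 0.25 ± 0.0580 in PROTAC (-0.37 to -0.13, adjusted p = 0.0114, edgeR) and by 0.23 ± 0.0577 in UNC (-0.34 to -0.11, adjusted p = 0.00611, edgeR), in 3 of 3 pairs each. By group alone the adjusted p was 0.938 and 0.218 in edgeR's test. The paired call in PROTAC was lost without PROTAC 1, DMSO 1 or DMSO 3 and without number 1 or 2, and that in UNC without UNC 3 or DMSO 1 and without number 2 or 3. Over all paired settings the adjusted p reached 0.203 in PROTAC, with log2 fold changes of -0.30 to -0.15, and 0.0906 in UNC, with -0.27 to -0.16 (edgeR or DESeq2). PROTAC against UNC gave -0.02 ± 0.0581 (-0.14 to 0.10, adjusted p = 0.934, edgeR, paired).

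SNHG26 lies opposite to HYCC1, a gene of the complex that brings a lipid kinase to the plasma membrane, which had 91407 counts beside 39476 of SNHG26. No GENCODE 29 exon bases are shared between them. HYCC1 had a positive change, by 0.18 ± 0.0534 in PROTAC (adjusted p = 0.0560, not called) and by 0.18 ± 0.0534 in UNC (adjusted p = 0.0177, called), both from edgeR's paired fit. The host contains the box C/D snoRNA SNORD93, shown with its box D (CTGA) in capitals (GRCh38).
SNORD93 (chr7:22856613-22856686, + strand): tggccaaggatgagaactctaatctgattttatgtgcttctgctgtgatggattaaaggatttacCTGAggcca

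**Figure D4:**
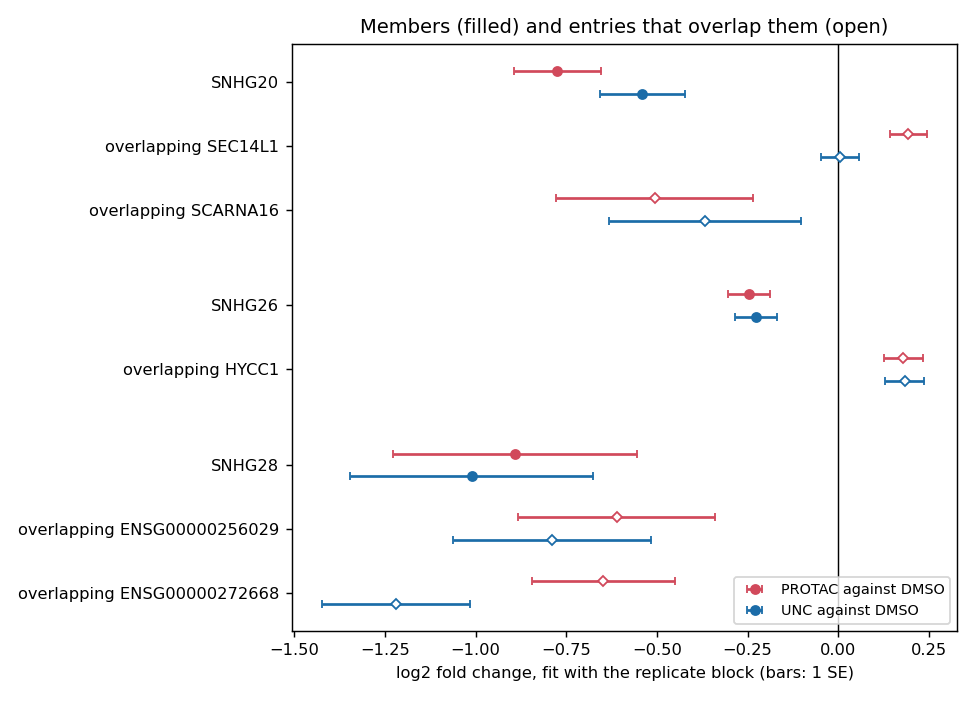
Log2 fold change with 1 SE (x axis, paired fit) of SNHG20, SNHG26 and SNHG28 (filled circles) and of 5 entries that overlap them (open diamonds), in PROTAC against DMSO (red) and UNC against DMSO (blue). SEC14L1 and HYCC1 lie at or above 0 while SNHG20 and SNHG26 lie below 0, and both entries shown for SNHG28 lie below 0 with it.

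SNHG6, the host of SNORD87, was the 1 member called higher. It had 28.0, 34.8 and 31.5 CPM in PROTAC libraries, 28.5, 39.1 and 33.0 CPM in UNC libraries, and 27.4, 31.4 and 28.3 CPM in DMSO libraries. The groups overlapped, and within each number the UNC library was above the DMSO library. Its paired change in UNC was 0.20 ± 0.0627 (0.07 to 0.32, adjusted p = 0.0318, edgeR), and by group alone it had adjusted p = 0.531 in the same test. The paired call was absent with scaling by library size or by the upper quartile and without UNC 2, UNC 3, DMSO 2, DMSO 3, number 2 or number 3, with an adjusted p up to 0.418 over the paired settings (edgeR or DESeq2). In PROTAC the paired change was 0.11 ± 0.0632 (adjusted p = 0.426, edgeR). MCMDC2, on the opposite strand, had 168 counts against 18874 of SNHG6.

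SNHG28 was the least abundant member. It had 0.48, 0.39 and 0.28 CPM in PROTAC libraries, 0.52, 0.08 and 0.48 CPM in UNC libraries, and 0.99, 0.56 and 0.71 CPM in DMSO libraries, and its count in UNC 2 was 3. All treated libraries lay below all DMSO libraries. In the paired fit its log2 fold change was -0.89 ± 0.336 in PROTAC (-1.57 to -0.21, adjusted p = 0.155, edgeR) and -1.01 ± 0.335 in UNC (-1.69 to -0.33, adjusted p = 0.0389, edgeR), and only the second was called; by group alone the second had adjusted p = 0.424. The paired call in UNC was lost without UNC 1, UNC 2, any DMSO library, number 1 or number 2, with an adjusted p up to 0.280 (edgeR). Its GENCODE 29 exons lie wholly within those of ENSG00000256029 on the same strand and make up 27.7% of them. Reads over the SNHG28 exons therefore cannot be assigned to 1 of the 2 entries. ENSG00000256029 had 468 counts against 319 of SNHG28, with changes of -0.61 ± 0.272 in PROTAC (adjusted p = 0.250, edgeR, paired) and -0.79 ± 0.274 in UNC (adjusted p = 0.0494, edgeR, paired). ENSG00000272668, on the opposite strand, had 980 counts and was also called lower in UNC, with -1.22 ± 0.204 (adjusted p = 4.70e-05, edgeR, paired). Of the other entries that overlap SNHG28, SLAMF8 had 0 counts and VSIG8, which shares 270 exon bases with it on the same strand, had 25 counts; neither was tested.

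Further members had an unadjusted p under 0.05 in the paired fit and missed the adjusted threshold. In PROTAC against DMSO these were SNHG28, SNHG8, SNHG4 and SNHG29, with 6 members (18.8%) under 0.05 in all, where 15.9% of all genes were. In UNC against DMSO there were 12 (37.5%), where 25.6% of all genes were, and those not called were SNHG30, SNHG4, SNHG15, SNHG29, SNHG8, SNHG33, SNHG31 and SNHG7. SNHG8, host of SNORA24, had a log2 fold change of 0.14 ± 0.0537 in PROTAC (adjusted p = 0.164, edgeR) and 0.14 ± 0.0535 in UNC (adjusted p = 0.0683, edgeR). SNHG30, host of SNORD7, had 11.98 ± 1.15 CPM in UNC and 14.2 ± 0.916 CPM in DMSO libraries (SD, n = 3 each), which did not overlap, with -0.25 ± 0.0892 (adjusted p = 0.0567, edgeR). DANCR had 26.4 ± 2.79 CPM in PROTAC, 25.9 ± 1.32 CPM in UNC and 24.9 ± 1.62 CPM in DMSO libraries, with paired changes of 0.08 ± 0.0705 and 0.06 ± 0.0701.

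The share of members whose libraries separated lay close to that over all genes in the comparisons with DMSO. The CPM values of PROTAC and DMSO did not overlap for 5 of 32 members (ZFAS1, SNHG26, SNHG11, SNHG20 and SNHG28), against 11.5% of all genes tested. UNC and DMSO did not overlap for 4 members (SNHG26, SNHG30, SNHG20 and SNHG28), against 17.4%, and PROTAC and UNC did not overlap for SNHG20 alone, against 9.09%.

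Shared loci touched most of the family. Apart from small RNAs, 27 members overlapped at least 1 other entry, and SNHG33, SNHG27, SNHG15, SNHG17 and SNHG11 overlapped none. For 9 members a partner lay on the same strand, and for 9 the partners together had more counts than the member. The members with fewer counts than their partners included SNHG9, with 1881 counts beside 1173488 of the ribosomal protein gene RPS2 on the opposite strand, and SNHG4, with 33323 counts beside 266025 of MATR3 on the same strand. By GENCODE 29, exons shared bases in 24 of 55 pairs, which involved 16 members, and 5 members shared exon bases with a partner on the same strand. No member among the 5 without a partner was called in either fit. In the paired fit 2.99% of all genes were called in PROTAC against DMSO and 13.5% in UNC against DMSO. With only 5 members, this count does not set them apart from the members with a partner. Of the 21 entries of the table that are small RNAs by symbol, 4 lay inside members: SCARNA13 in SNHG10 (30977 counts), SCARNA17 in SNHG22 (15078 counts), SCARNA16 in SNHG20 (453 counts) and SCARNA15 in SNHG21 (75 counts). ENSG00000252139, a scaRNA in GENCODE 29 without such a symbol, also lay inside SNHG22 (4139 counts). None of the named values can assign a read to the host or to the scaRNA inside it.

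The proteins that build and use snoRNAs were followed as lists. By group alone no member of the 6 pathway lists was called in any comparison. The counts that follow stand beside 7.04% of all genes called higher and 6.46% called lower in UNC against DMSO, and 2.01% and 0.984% in PROTAC against DMSO, in the paired fit. In that fit none of the 4 box C/D core proteins was called in PROTAC against DMSO, and in UNC against DMSO 1 of 4 fell: NOP56, a scaffold of the box C/D particle and itself a snoRNA host, had 248 CPM in UNC and 276 CPM in DMSO libraries, a change of -0.15 ± 0.0519 (adjusted p = 0.0457, edgeR). The 4 box H/ACA core proteins had no call against DMSO. Of 14 assembly factors none was called against DMSO, and ZNHIT6, a factor for box C/D assembly, was higher in PROTAC against UNC by 0.22 ± 0.0565 (adjusted p = 0.0204, edgeR).

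Among 22 factors of nonsense-mediated decay, which acts on several host RNAs, 1 rose and 1 fell in UNC against DMSO in the paired fit. EIF4A3, a core protein of the exon junction complex, had 113 CPM in UNC and 127 CPM in DMSO libraries (-0.18 ± 0.0512, adjusted p = 0.0176, edgeR), and NBAS had 108 and 97.2 CPM in the same order (0.15 ± 0.0517, adjusted p = 0.0484, edgeR). The median of the list was 0.00 beside -0.01 over all genes. Of 10 regulators of TOP transcripts, 2 rose: EIF4EBP2, by 0.21 ± 0.0502 (adjusted p = 0.00306, edgeR), and EIF4EBP1, by 0.19 ± 0.0622 (adjusted p = 0.0347, edgeR), both repressors of cap-dependent translation. None of the 22 and none of the 10 was called in PROTAC against DMSO.

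The protein-coding hosts of snoRNAs, mostly ribosomal protein and translation factor genes, gave a comparison within the host class. Of 47 such genes, 4 rose and 1 (NOP56) fell in UNC against DMSO in the paired fit, with a median log2 fold change of 0.08 and 42 positive. Over all genes 13.5% were called, the median was -0.01 and 48.1% were positive. HSPA9, a mitochondrial chaperone, had 713 CPM in UNC and 614 CPM in DMSO libraries (0.21 ± 0.0529, adjusted p = 0.00487, edgeR). EIF4G2 had 931 and 832 CPM (0.16 ± 0.0535, adjusted p = 0.0383, edgeR), and RPL23A 564 and 505 CPM (0.16 ± 0.0543, adjusted p = 0.0476, edgeR), in the same order. In PROTAC against DMSO none of the 47 was called, with a median of 0.05 and 37 positive, beside -0.01 and 47.9% positive over all genes. The difference between coding and noncoding hosts was not tested.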

How the data were processed

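RNA was sequenced from 9 libraries, 3 per group; titles gave the group and the replicate number. Per the labels' protocols, total RNA went into Watchmaker libraries after removal of ribosomal RNA, but the molecule field says polyA RNA, so which transcripts were selected is uncertain. Per the submitters' processing notes, Trim Galore 0.6.10 and HISAT2 2.2.1 were used, with the build GRCh38. How reads were counted, including strand, is not stated in those notes or the labels, so overlapping genes may share reads. The authors deposited raw, whole-number read counts per gene.

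From these counts, edgeR 4.0.16 (R 4.3.3) gave TMM-scaled CPM, the default expression filter (24187 of 56312 entries kept), and robust quasi-likelihood tests, two-sided, over all 9 libraries. Adjustment was by Benjamini and Hochberg over every gene tested, and SE and intervals are from the same models. The alternatives were DESeq2 1.42.0, other scalings and filters, and fits without single libraries. Both models were tested on simulated data. The series text calls the experiments independent, done 3 times. Same-numbered libraries deviated from their group means together (9 correlations, 0.106 to 0.472) and differently numbered ones did not (18 correlations, -0.324 to 0.0753). Deviations cancel out within a group, so the second range follows in part from the first and is not separate support. Because of the first range, values from the model with the number as a block stand beside results whose calls it changes. The pairing rests on these same counts, and no label ties a number to 1 experiment. That block lowered the biological coefficient of variation to 6.09%, against 13.2% without it. Replicates differed by more than counting noise (chi-square per degree of freedom 10.5 to 34.4).

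The members, lists and tests were chosen with earlier results of these data known. Values per library are given for the 8 members with the highest mean CPM and for each member called in either model; lists name at most 4 called genes. TDGF1, of the pluripotency list, had no matching symbol. Promoters came from RefSeq's table, and small RNAs and exons from GENCODE 29.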

Additional observations from a re-analysis of the deposited data

How the results depend on the processing

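With the replicate block the count of members called moved from 0 to 2 in PROTAC against DMSO and from 0 to 4 in UNC against DMSO, and it stayed at 0 in PROTAC against UNC. In PROTAC against DMSO it was 1 without the filter, 1 in DESeq2, and 2 with the block together with library size, RLE scaling, DESeq2 or upper-quartile scaling. In UNC against DMSO it was 1 in DESeq2, and with the block 6 by library size, 4 by RLE, 5 in DESeq2 and 6 by upper quartile. With single libraries or 1 number left out it was 0 by group alone, and with the block 1 to 2 in PROTAC against DMSO, 1 to 7 in UNC against DMSO (1 without number 2, 7 without number 1 or DMSO 2) and 0 to 1 in PROTAC against UNC (SNHG10, without PROTAC 1 or number 1, which was then also called in PROTAC against DMSO). In UNC against DMSO SNHG15, SNHG4 and SNHG30 were called with the block by library size, by upper quartile and without DMSO 2, SNHG22 and SNHG7 without DMSO 2, SNHG8 in DESeq2 and without number 1, SNHG29 in DESeq2, GAS5 without number 1, and SNHG3 and SNHG1 without DMSO 1 or number 1. SNHG20 was called in 14 of 14 settings with the block in both comparisons with DMSO (highest adjusted p = 0.0177 and 0.0495, edgeR or DESeq2), SNHG26 in 9 of 14 and 10 of 14, SNHG6 in 6 of 14 and SNHG28 in 6 of 13 in UNC. The median member change in PROTAC against UNC was -0.0596 over members that overlap no other entry, and -0.0877 to 0.0253 with libraries left out. ZFAS1 in UNC against DMSO turned positive with RLE scaling (0.00745), in DESeq2 (0.00732) and with the block in RLE (0.00335) or DESeq2 (0.00335), and was -0.0616 to 0.0785 with libraries left out. All these ranges of medians and single members with libraries left out pool fits by group alone and with the block. Other members also changed sign in them, none called where the sign changed. Against DMSO in PROTAC these were SNHG14 (-0.112 to 0.0650), GAS5 (-0.0440 to 0.106), SNHG3 (-0.0732 to 0.186), SNHG1 (-0.0504 to 0.133) and SNHG17 (-0.170 to 0.0349). In UNC against DMSO they were SNHG14 (-0.239 to 0.0226), GAS5 (-0.0198 to 0.209), SNHG1 (-0.0201 to 0.202) and SNHG17 (-0.159 to 0.0116). In PROTAC against UNC these were SNHG26 (-0.0934 to 0.0658), SNHG6 (-0.196 to 0.0317) and SNHG28 (-0.365 to 0.476). With the block, over 14 settings each, SNHG14 in UNC against DMSO stayed at -0.152 to -0.0410 and GAS5 at 0.00398 to 0.193. SNHG6 in PROTAC against UNC stayed at -0.138 to -0.0376. In these comparisons the sign of SNHG14, GAS5 and SNHG6 changed only in fits by group alone. Of 834 alternatives for single members, 714 kept direction and call, 68 gained a call and 52 changed sign. The cause was not tested. Where leaving out a library left a group with 2, the spread was still shared over all groups.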
